A study of Mus musculus with 18 samples.

Results

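Fast inhibition in the brain runs through receptor channels that open for GABA or glycine and let chloride pass. The genes described here are 7 parts of that machinery in mouse cortex: *Gabra2* and *Gabra3*, which encode α subunits of the GABA-A receptor, *Glra2* and *Glrb*, which encode the α2 and β subunits of the glycine receptor, *Gphn*, which encodes the scaffold gephyrin, *Kcnj6*, which encodes the potassium channel subunit GIRK2, and *Slc12a5*, which encodes the chloride exporter KCC2. They were found by symbol, as 7 of 23038 gene symbols in the deposited expression table, and all 7 passed the filter on low counts in every comparison. In the deposited table of NOVA2-dependent alternative splicing events they own 5 of 1991 events, 4 in *Gphn* and 1 in *Glra2*, while the other 5 genes have none listed.

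Gephyrin forms a lattice under inhibitory synapses and holds glycine receptors there through the β subunit, and GABA-A receptors through several of their subunits. KCC2 keeps chloride low inside the neuron, which sets the direction of the current through these receptors, and its level is low before birth and rises as neurons mature. GIRK2 carries the slow inhibitory current that follows activation of GABA-B receptors. NOVA1 and NOVA2 are neuronal RNA-binding proteins that recognise clusters of a tetramer, a T or C, then CA, then a T or C (U in RNA), and RNAs of the inhibitory synapse are among the targets for which NOVA proteins are known.

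Cortex RNA came from CD1-background embryos of day 18.5, in 4 groups of 3 mice. The groups were *Nova2-/-* mice (wild-type mice of their litters as controls, replicates 1 to 3) and *Nova1-/-* mice (wild-type mice of their litters, replicates 4 to 6), and neither knockout is restricted to a cell type. Total RNA depleted of ribosomal RNA was sequenced, and total counts per mouse ran from 16518149 to 31361972. The *Nova2-/-* allele was made by replacing the first exon, and *Nova2* transcript was counted in these mice at 17.0, 17.9 and 21.6 CPM (counts scaled by the TMM method to a library of fixed size) against 31.6, 31.5 and 40.8 in wild-type littermates. By the paper's Western blot of newborn cortex, NOVA2 protein was absent in *Nova2-/-* mice. *Nova1* fell from 41.4 to 75.8 CPM in wild-type littermates to at most 0.211 CPM in *Nova1-/-* mice. Markers of cortical projection neurons summed to 954 to 1231 CPM in every mouse, with none of the 9 at 0. The wild-type mice of the *Nova2* litters stand apart in other cells: the 16 meningeal markers summed to 309, 380 and 791 CPM there, against 1005 to 1484 CPM in the other 9 mice, and none of the 16 was at 0. Wild-type replicate 2 of these litters had the lowest total and 21791 genes with a count, against 18397 to 19396 in the other mice.

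The sequences below are the *Gphn* exon at which splicing differed and a stretch of the *Glra2* intron in which its cassette event lies. They are printed so that the tetramers can be seen, and the *Glra2* stretch was picked for its tetramers. The first is the *Gphn* cassette exon with 60 nt of intron on each side, on the plus strand of mm9, chr12:79594877-79595104, the exon itself being chr12:79594937-79595044. The second is a stretch of 100 nt of the *Glra2* intron that holds its cassette event, on the minus strand of mm9, chrX:161763657-161763756, shown because it holds more tetramers than any other stretch of that length in the intron. Capitals mark the tetramers TCAT or, ending in C, TCAC, and those starting with C, CCAT or, ending in C, CCAC, searched on the transcript strand alone with overlapping matches all counted, and letters are those of the DNA.

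*Gphn*: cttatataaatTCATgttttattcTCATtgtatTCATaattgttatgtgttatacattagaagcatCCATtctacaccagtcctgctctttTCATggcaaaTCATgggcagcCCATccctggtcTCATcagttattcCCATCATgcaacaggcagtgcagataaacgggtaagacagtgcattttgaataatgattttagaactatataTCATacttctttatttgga
*Glra2*: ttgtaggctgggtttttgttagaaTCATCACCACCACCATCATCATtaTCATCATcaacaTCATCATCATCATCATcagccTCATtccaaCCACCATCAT

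The *Gphn* exon is an annotated coding exon of 108 nt, which is 36 whole codons with no stop codon in its annotated frame, so that taking it in or leaving it out keeps the reading frame. It lies between introns of 1639 nt and 10559 nt. The exon holds 7 tetramers, the 200 nt before it 9 and the 200 nt after it 5, and the 508 nt window holds 21 in all. Windows of the same length centred on each of 192346 internal exons of the mm9 annotation held a median of 8, and 0.297% of them held 21 or more. By the paper, listed events were chosen partly for tetramers in NOVA-bound clusters on the exon or its introns. The internal exons were not so chosen, and the share is therefore no test of enrichment. Of the 196 distinct cassette spans that hold a single annotated inner exon, 2.04% had as high a density around that exon as *Gphn*, at 41.3 tetramers per kilobase against a median of 19.3. The high density was local, since the whole *Gphn* span had 18.2 tetramers per kilobase, near the median of 17.2 over all 642 distinct cassette spans.

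No exon is annotated within the *Glra2* intron, chrX:161762567-161764733, so the sequence of the cassette exon itself is not shown. The intron follows the first annotated exon of the gene and holds 41 tetramers over 2167 nt. The stretch of 100 nt printed above holds 18 of the 41, against a median of 1 over all stretches of that length in the intron. It lies 977 nt after the upstream exon and 1090 nt before the downstream one. Over its whole span the *Glra2* event had 18.6 tetramers per kilobase, and 26.2% of the 642 cassette spans had as many or more. These matches describe letters in the reference, are not by themselves evidence of binding, and were not checked against the paper's NOVA crosslinking clusters.

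**Figure D1:**
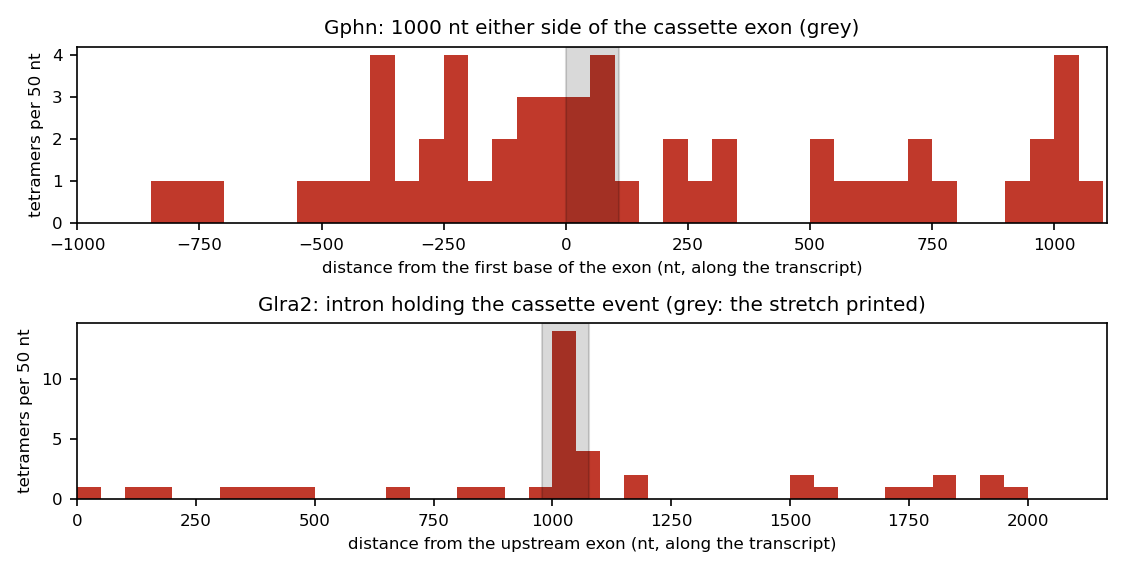
Tetramers recognised by NOVA, as spelled above, per 50 nt along the transcript, within 1000 nt of the *Gphn* cassette exon (upper, exon in grey, x axis from the first base of the exon) and across the *Glra2* intron that holds its event (lower, x axis from the upstream exon, grey marking the printed stretch). In *Gphn* 21 tetramers lie within the exon and 200 nt on each side, and in *Glra2* 18 of 41 lie in the grey stretch.

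Splicing was given as ΔI, the inclusion of an exon in wild type minus that in the knockout, so that a negative value is more inclusion in the knockout. Each event has 1 value per comparison, without replicates or read counts. By the paper, listed events had a ΔI of at least 0.1 in size and an FDR below 0.1 in *Nova2-/-* cortex. They also held the tetramer within clusters of reads crosslinked to NOVA1 or NOVA2, on the alternative exon or its flanking introns. The *Nova2-/-* values thus describe chosen events and are no test. A gene with no listed event may have missed any of these criteria. The largest *Gphn* value was that of the cassette exon printed above, in the span chr12:79593025-79605738, at -0.603 in *Nova2-/-* cortex. It ranked 60 among the 1991 events by size. The same exon had a ΔI of -0.0412 in *Nova1-/-* cortex (FDR 0.280) and of -0.0592 in *Nova1-/-* midbrain and hindbrain (FDR 0.00091). All 3 values were below 0, and the *Nova1-/-* ones were under 0.06 in size.

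The 4 *Gphn* events are not independent. A further cassette entry on the same span, whose exon is not placed by its name, had ΔI values of -0.471 in *Nova2-/-* cortex, -0.0236 in *Nova1-/-* cortex and -0.0380 in the other *Nova1-/-* tissue. A pair of entries for mutually exclusive exons starts at the same upstream exon and reaches over 70861 nt to chr12:79663885, and the annotation places exons of 108, 135, 57 and 42 nt inside that span. Their ΔI values in *Nova2-/-* cortex were -0.325 and -0.318. In *Nova1-/-* cortex they were -0.0206 and -0.0243, and in *Nova1-/-* midbrain and hindbrain -0.0236 and -0.0384. All 4 entries had the same sign in all 3 comparisons.

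The *Glra2* cassette event, in the span chrX:161762433-161764749 on the minus strand, had a ΔI of -0.591 in *Nova2-/-* cortex and ranked 73 by size. In the *Nova1-/-* tissues it stood at 0 to within 0.002, at -0.00149 in cortex and -0.00087 in midbrain and hindbrain, both with an FDR of 1.0. With the *Gphn* exon, it was thus more included in *Nova2-/-* cortex. Over all 1991 events the median size of ΔI was 0.223 in *Nova2-/-* cortex, 0.0341 in *Nova1-/-* cortex and 0.0378 in *Nova1-/-* midbrain and hindbrain, and 51.4% of the *Nova2-/-* values were below 0.

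None of the 5 events reached 0.1 in size with an FDR below 0.1 in *Nova1-/-* cortex, where 0.907% of all listed events did, or in *Nova1-/-* midbrain and hindbrain, where 5.98% did. At an FDR below 0.1 alone, all 4 *Gphn* entries passed in *Nova1-/-* midbrain and hindbrain with a ΔI below 0, beside 9.24% of all events. For the pair of mutually exclusive entries it was not established which exon is scored, so their sign is not read as more inclusion. Since these entries overlap, they amount to 1 finding in 1 gene, with sizes of 7.27% to 12.1% of the *Nova2-/-* values. The tissues differ as well as the genotypes, and a difference between ΔI values could not be tested.

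**Figure D2:**
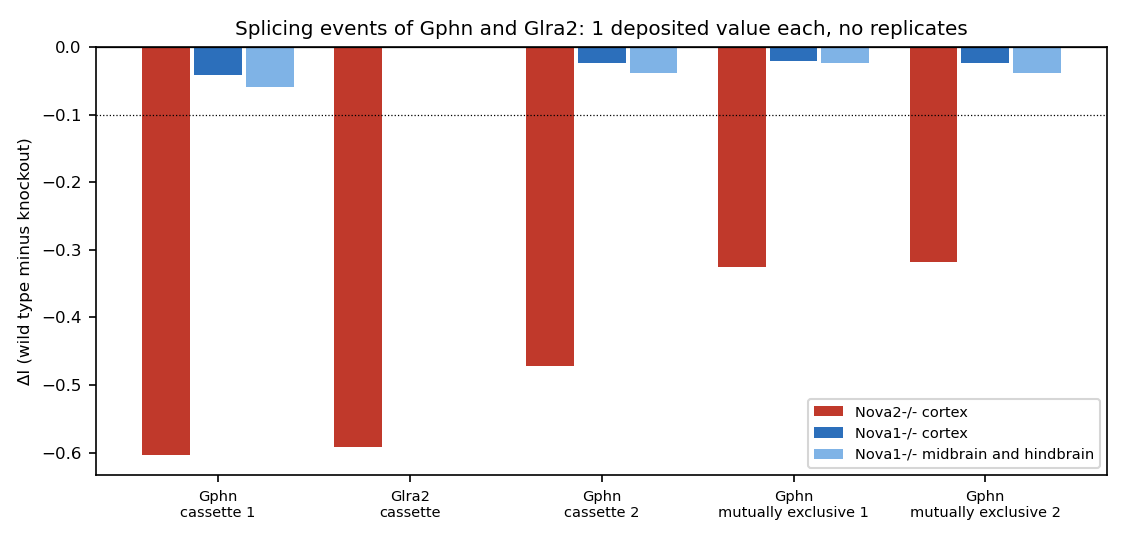
ΔI (wild type minus knockout, no unit) of the 5 listed events of *Gphn* and *Glra2* in cortex of *Nova2-/-* mice (red) and, of *Nova1-/-* mice, in cortex (dark blue) and midbrain with hindbrain (light blue), 1 deposited value per bar, with a dotted line at -0.1. Red bars run from -0.603 to -0.318, blue bars stay above -0.06, and the blue bars of *Glra2* are too short to see.

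In wild-type cortex the 7 genes spanned a wide range of levels. Set per kilobase of merged exons, so that genes can be compared, the mean over the 6 wild-type mice was 45.8 CPM for *Gphn*, 36.9 for *Gabra2*, 32.9 for *Glra2*, 26.2 for *Glrb*, 13.3 for *Gabra3*, 10.4 for *Slc12a5* and 1.01 for *Kcnj6*. The glycine receptor subunits were thus above *Gabra3*, whose wild-type values per kilobase ran from 12.7 to 14.1 against 21.7 to 29.4 for *Glrb*. Neighbours in that order overlapped except at 2 steps, from *Glrb* to *Gabra3* and from *Slc12a5* to *Kcnj6*. *Slc12a5* ran from 7.84 to 13.3 and *Kcnj6* from 0.692 to 1.30 per kilobase. Set by the longest transcript instead, *Kcnj6* came to 1.63 per kilobase and the order of the 7 stayed as it was. No exon of the 7 genes overlaps a gene annotated on the opposite strand, and *Slc12a5* alone shares exon sequence with another annotated gene, *Gm11459*, on its own strand.

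The question put to the knockouts was whether transcript level changed along with splicing. In *Nova2-/-* cortex none of the 7 genes passed an FDR of 0.05 in edgeR's quasi-likelihood test, where 1.06% of the 15691 genes tested did, and 3 had an unadjusted p under 0.05, where 19.2% of all genes did. *Gabra3*, *Kcnj6* and *Glra2* were those 3, all with lower values in the knockout. The median log2 fold change of the 7 was -0.17, beside 0.01 over all genes tested. Of the 7, 1 was above 0, beside 51.8% of all genes tested. In bulk tissue, fewer cells of a type and less RNA per cell cannot be told apart.

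*Gabra3*, on the X chromosome (mm9 chrX:69678020-69902187), encodes an α subunit of GABA-A receptors that is prominent in the immature brain. Its levels were 52.0, 50.0 and 55.4 CPM in the wild-type littermates and 36.6, 39.1 and 39.1 CPM in *Nova2-/-* mice. The *Nova2-/-* mice were the lowest 3 of all 12 cortices, and the wild-type mice of the *Nova1* litters, at 52.8, 50.8 and 51.6 CPM, lay in the same range as the other wild-type mice. The log2 fold change was -0.45 (standard error 0.085), with an adjusted p of 0.056 in edgeR's test, just outside the threshold. In *Nova1-/-* mice the levels were 62.7, 55.3 and 48.6 CPM, which overlapped those of wild-type littermates (log2 fold change 0.10, standard error 0.085, adjusted p = 0.830).

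*Gabra3* was also the 1 gene of the 7 whose change differed between the knockouts. The change in *Nova2-/-* cortex minus that in *Nova1-/-* cortex was -0.56 on the log2 scale (standard error 0.12), with an adjusted p of 0.0342 in edgeR's test of the difference, which passed for 1.83% of 16210 genes. Of the 12 fits that each left out 1 mouse, 9 took the adjusted p above 0.05, to at most 0.103, while the difference stayed between -0.65 and -0.46. The mice whose absence kept the call were wild-type replicates 2 and 3 of the *Nova2* litters and *Nova1-/-* replicate 3, and each of the other 9 mice ended it. Markers of neurons in general moved the same way in the *Nova2* litters, and their part in the result was not tested: the 6 measured markers summed to 4426 to 4797 CPM in wild-type and 3941 to 4307 CPM in *Nova2-/-* mice, with none called and none at 0. Markers of interneurons summed to 647 to 709 CPM and 709 to 751 CPM in the same groups, with none of the 11 at 0. Of the 11, 8 had a log2 fold change above 0 in *Nova2-/-* cortex, beside 51.8% of all genes tested. *Sst*, which encodes somatostatin, went the other way and was the 1 called, at a log2 fold change of -0.83 (adjusted p = 0.0366 in edgeR's test). Its part was not tested.

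*Gabra2* (mm9 chr5:71352296-71487088) encodes another GABA-A receptor α subunit, and its comparison rests on 1 mouse. Wild-type mice of the *Nova2* litters had 110, 99.4 and 33.1 CPM, *Nova2-/-* mice 93.5, 88.9 and 82.0 CPM. The value of 33.1 in wild-type replicate 3 was the lowest of the 12, the other 11 lying between 82.0 and 110 CPM. The log2 fold change was 0.15 (standard error 0.35, adjusted p = 0.861 in edgeR's test), and without that mouse it was -0.23 (adjusted p = 0.0862). In the *Nova1* litters *Gabra2* varied little, with 96.9, 94.1 and 96.1 CPM in wild-type and 103, 94.7 and 97.9 CPM in *Nova1-/-* mice (log2 fold change 0.04, standard error 0.056, adjusted p = 0.897).

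Wild-type replicate 3 decided more than *Gabra2*. Without it, 3 of the 7 genes passed the threshold in *Nova2-/-* cortex, all lower: *Gabra3* (adjusted p = 0.011), *Glrb* (0.0291) and *Glra2* (0.0431) in edgeR's test. The share of all genes passing then rose to 9.03%, or 1433 of 15874. Without wild-type replicate 2, the mouse with the lowest total, none of the 7 passed. Replicate 3 also had the highest meningeal marker sum of its group, 791 CPM, and what set it apart was not tested.

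*Glra2* (mm9 chrX:161566949-161765325) encodes the α subunit that dominates glycine receptors before birth. Its levels were 123, 109 and 96.2 CPM in the wild-type littermates and 97.0, 94.5 and 84.1 CPM in *Nova2-/-* mice. The groups met at their edges, with the highest knockout value just above the lowest wild-type one. The log2 fold change was -0.24 (standard error 0.098, adjusted p = 0.237 in edgeR's test), so the gene with a ΔI of -0.591 in this tissue had no called change in level. In the *Nova1* litters wild-type mice had 102, 102 and 91.4 CPM and *Nova1-/-* mice 95.5, 101 and 103 CPM, and the log2 fold change there was 0.02 (standard error 0.061, adjusted p = 0.958).

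*Glrb* (mm9 chr3:80647521-80717582) encodes the subunit that ties glycine receptors to gephyrin. Levels in the *Nova2* litters were 98.0, 92.4 and 72.5 CPM in wild-type and 78.2, 79.3 and 74.3 CPM in *Nova2-/-* mice, with wild-type replicate 3 below all 3 knockouts (log2 fold change -0.17, standard error 0.11, adjusted p = 0.436 in edgeR's test). In the *Nova1* litters the groups did not overlap, at 90.9, 85.8 and 85.0 CPM in wild-type and 84.1, 78.6 and 77.6 CPM in *Nova1-/-* mice. That gap was small, at -0.12 on the log2 scale (standard error 0.059, adjusted p = 0.677 in edgeR's test), and 0.0126% of the 15901 genes tested passed the threshold in that comparison.

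*Gphn* (mm9 chr12:79327642-79785754), with the largest splicing value of the 7, had the smallest log2 fold change and standard error of the 7 in *Nova2-/-* cortex. Wild-type mice had 165, 140 and 140 CPM and *Nova2-/-* mice 144, 140 and 149 CPM. The means were 148 ± 14.3 and 144 ± 4.35 CPM (SD, n = 3), and all 3 knockout values lay within the range of the wild-type ones. The log2 fold change was -0.02 (standard error 0.077, adjusted p = 0.901 in edgeR's test). Levels in the *Nova1* litters were 168, 156 and 165 CPM in wild-type and 170, 167 and 161 CPM in *Nova1-/-* mice, the log2 fold change being 0.03 (standard error 0.052, adjusted p = 0.934).

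*Kcnj6* (mm9 chr16:94970873-95219303) was the least abundant of the 7, with 68 to 238 counts per mouse. Wild-type littermates had 4.04, 4.88 and 5.79 CPM and *Nova2-/-* mice 3.87, 3.05 and 3.37 CPM, all 3 below the lowest wild-type value. The log2 fold change of -0.51 was the largest in size among the 7, yet its standard error was 0.20 and its adjusted p 0.229 in edgeR's test. For *Nova1*, wild-type littermates had 6.22, 6.98 and 7.58 CPM and *Nova1-/-* mice 7.99, 5.84 and 5.53 CPM, which overlapped (log2 fold change -0.10, standard error 0.16, adjusted p = 0.922). All 6 mice of the *Nova2* litters were thus below the wild-type mice of the *Nova1* litters.

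*Slc12a5* (mm9 chr2:164786316-164825228) varied within groups. Wild-type littermates had 58.9, 56.3 and 74.5 CPM and *Nova2-/-* mice 55.1, 51.8 and 77.5 CPM. In each group replicate 3 stood well above the other two, and the groups overlapped (log2 fold change -0.03, standard error 0.17, adjusted p = 0.947 in edgeR's test). For *Nova1*, wild-type littermates had 75.1, 95.2 and 86.2 CPM and *Nova1-/-* mice 92.6, 78.4 and 74.0 CPM (log2 fold change -0.06, standard error 0.097, adjusted p = 0.919). With such standard errors, the *Slc12a5* comparison was far less precise than that of *Gphn*.

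**Figure D3:**
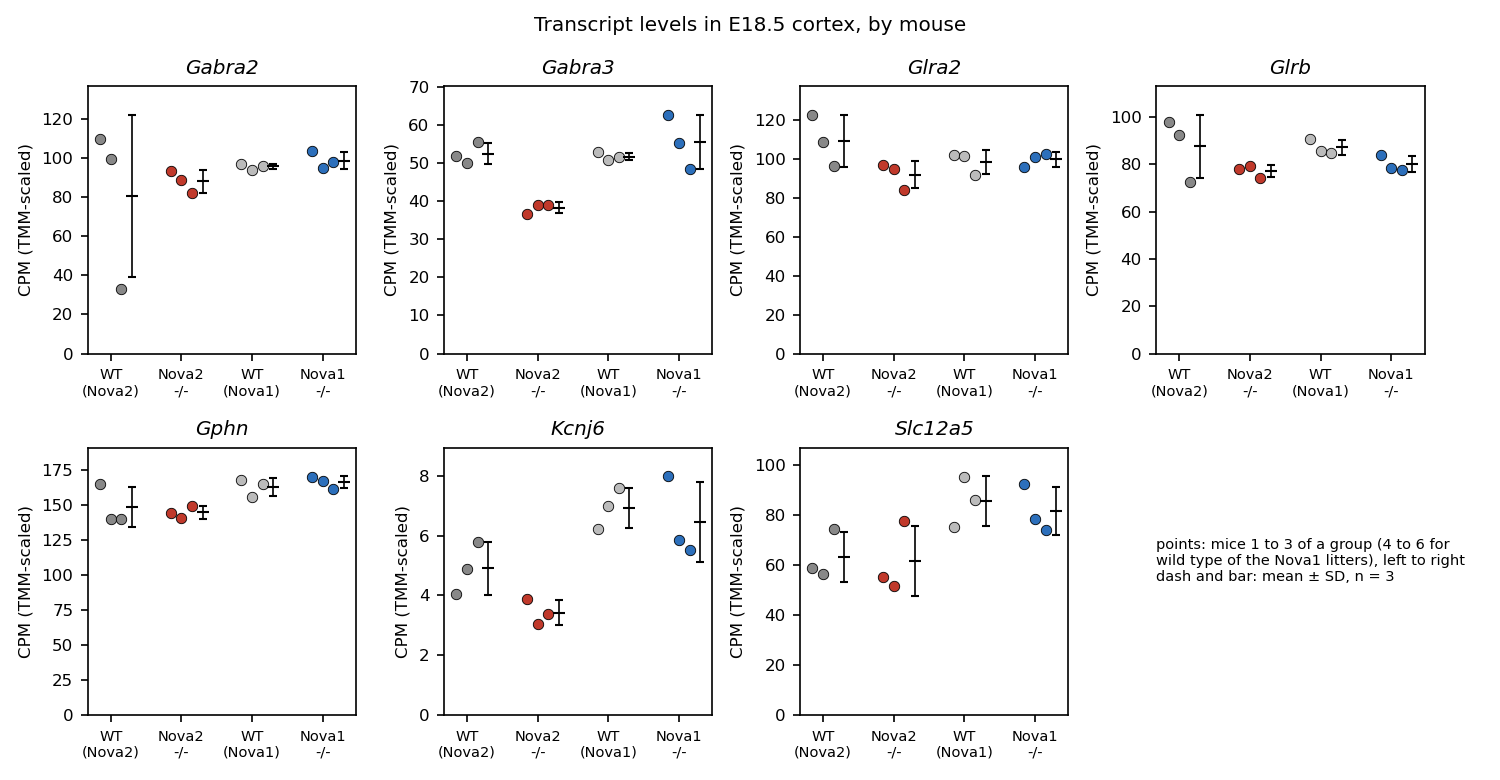
Levels of the 7 genes in TMM-scaled CPM (y axes from 0) in each of 12 cortices, by group (each knockout beside its wild-type littermates), with points for mice and a dash and bar for mean ± SD (n = 3). *Gabra3* in *Nova2-/-* mice (36.6 to 39.1 CPM) lies below all other mice, and *Gabra2* in 1 wild-type mouse lies at 33.1 CPM.

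In *Nova1-/-* cortex none of the 7 genes passed the threshold of edgeR's test, and none had an unadjusted p under 0.05, where 7.44% of all genes did. Adjusted p-values ran from 0.677 to 0.958. The median log2 fold change of the 7 was 0.02, beside 0.00 over all genes, and the median size was 0.06, beside 0.08 over all genes. In *Nova2-/-* cortex the median sizes were 0.17 for the 7 and 0.16 over all genes. For the difference between the knockouts' changes, *Gabra3* passed and *Glra2* came next (-0.27, standard error 0.12, adjusted p = 0.262), while adjusted p-values of the other 5 genes ran from 0.416 to 0.975.

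**Figure D4:**
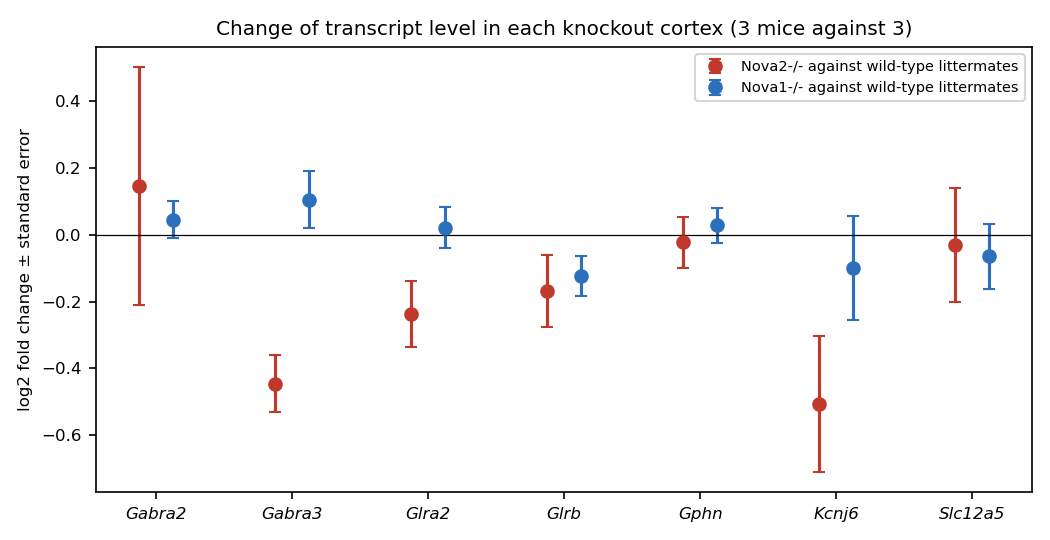
Log2 fold change (y axis) with its standard error (bars) for the 7 genes in *Nova2-/-* cortex (red) and *Nova1-/-* cortex (blue), each against wild-type littermates, 3 mice against 3. *Gabra3* stands at -0.45 in *Nova2-/-* and 0.10 in *Nova1-/-* cortex, and the red bar of *Gabra2*, at 0.15, has the longest error, 0.35.

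The other genes of the pathway were taken as 7 lists with 100 genes, 91 of them tested in each knockout. In *Nova2-/-* cortex 1 gene passed the threshold, *Gabra5*, and it was lower. At an unadjusted p under 0.05, 8 of the 91 were higher and 12 lower, beside 19.2% of all genes tested in either direction. None passed in *Nova1-/-* cortex, and 11 had an unadjusted p under 0.05 there (2 higher and 9 lower), beside 7.44% of all genes. *Gabra5* encodes the GABA-A receptor α5 subunit, common in receptors outside synapses. It stood at 94.8, 67.6 and 117 CPM in the wild-type littermates and at 45.7, 44.2 and 51.2 CPM in *Nova2-/-* mice. The *Nova2-/-* values were again the lowest 3 of the 12, with 66.9 to 92.7 CPM in the *Nova1* litters. The log2 fold change was -0.98 (standard error 0.18, adjusted p = 0.0483 in edgeR's test). The call was lost without wild-type replicate 1 or any 1 of the *Nova2-/-* mice (adjusted p up to 0.225), and over the 6 fits that each left out 1 mouse the value lay between -1.16 and -0.78. The change in *Nova2-/-* minus that in *Nova1-/-* cortex was -0.97 (standard error 0.22, adjusted p = 0.0420), and 9 of the 12 fits that left out 1 mouse lost that call (adjusted p up to 0.108).

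Of the 12 other GABA-A receptor subunits tested, 10 had log2 fold changes below 0 in *Nova2-/-* cortex, with a median of -0.15. *Gabra5* was the 1 called, and over all genes tested there 51.8% were above 0. The summed level of the 17 genes of that list was 1052 to 1210 CPM in wild-type and 889 to 937 CPM in *Nova2-/-* mice, without overlap. Summed markers of neurons in general did not overlap either, at 4426 to 4797 CPM in wild-type and 3941 to 4307 CPM in *Nova2-/-* mice. Their median log2 fold change was -0.14, and their part in the receptor values was not tested. In the *Nova1* litters the 17-gene sums overlapped, at 1078 to 1105 CPM in wild-type and 1038 to 1096 CPM in *Nova1-/-* mice. *Gabrr2*, a subunit of low level, had the second largest log2 fold change in size, 0.40, with a standard error of 0.80. Of the other glycine receptor subunits, *Glra3* stood at 4.44, 4.15 and 5.69 CPM in wild-type and 2.09, 2.19 and 3.10 CPM in *Nova2-/-* mice (log2 fold change -0.94, adjusted p = 0.0915 in edgeR's test), and *Glra4* at a log2 fold change of 0.13.

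Among 15 genes of GABA-B receptors and GIRK channels, the partners of *Kcnj6*, none was called in *Nova2-/-* cortex and the median log2 fold change was -0.14. *Kctd8*, an auxiliary subunit of GABA-B receptors, had 11.2, 10.6 and 10.1 CPM in wild-type and 6.27, 7.03 and 7.05 CPM in *Nova2-/-* mice (log2 fold change -0.64, adjusted p = 0.0612 in edgeR's test). It passed in the test of the difference between knockouts, at -0.68 (standard error 0.16, adjusted p = 0.0433), and 11 of the 12 fits that left out 1 mouse lost that call, the exception being the fit without wild-type replicate 3. *Kcnj9*, another GIRK subunit, stood at a log2 fold change of 0.36 (adjusted p = 0.292).

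Of 18 genes for inhibitory postsynaptic scaffold and adhesion, the company of gephyrin, 14 had values above 0 in *Nova2-/-* cortex, beside 51.8% of all genes. None was called (median log2 fold change 0.07). The largest were *Mdga1* (0.49, adjusted p = 0.0794 in edgeR's test), an inhibitor of neuroligin binding, and *Igsf9b* (0.40, adjusted p = 0.218). Receptor trafficking genes varied least, since all 19 had log2 fold changes between -0.22 and 0.19, and *Zdhhc3*, which palmitoylates GABA-A receptor γ2, and *Plcl2* had the largest in size, -0.22 and -0.21. Neither was called.

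Chloride transport, the list of which *Slc12a5* would be a member, had 15 tested genes, a median of 0.01 and none called in *Nova2-/-* cortex. *Slc12a7*, which encodes the chloride exporter KCC4, stood at 0.58 (adjusted p = 0.174 in edgeR's test) and *Neto2*, an auxiliary protein of KCC2 and kainate receptors, at -0.39 (adjusted p = 0.0854). Of 10 tested genes for synthesis, release and uptake of GABA and glycine, the 2 with the largest log2 fold changes were the transporters *Slc6a13* (1.33, adjusted p = 0.167) and *Slc6a12* (1.13, adjusted p = 0.156), the other 8 lying between -0.12 and 0.10. *Slc6a13* is also one of the 16 meningeal markers, whose median log2 fold change was 1.34, with 16 of 16 above 0 and 5 called; the part of meningeal cells in these values was not tested. *Slc6a12* passed in the test of the difference, at 1.93 (standard error 0.43, adjusted p = 0.0391), lost in 9 of the 12 fits that left out 1 mouse. Its wild-type levels differed between litters, at 0.673 to 1.14 CPM in the *Nova2* and 2.01 to 3.25 CPM in the *Nova1* litters, and *Nova2-/-* mice had 1.29 to 2.69 CPM.

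In *Nova1-/-* cortex the lists had medians between -0.05 and 0.26, the highest being that of 2 glycine receptor subunits of low level. The 2 largest log2 fold changes in size were *Slc6a12* at -0.81 (adjusted p = 0.503 in edgeR's test) and *Gabrr1* at 0.60 (adjusted p = 0.830). *Dynll1*, a dynein light chain that binds gephyrin, had the lowest adjusted p among the lists there, 0.395, at -0.23.

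**Figure D5:**
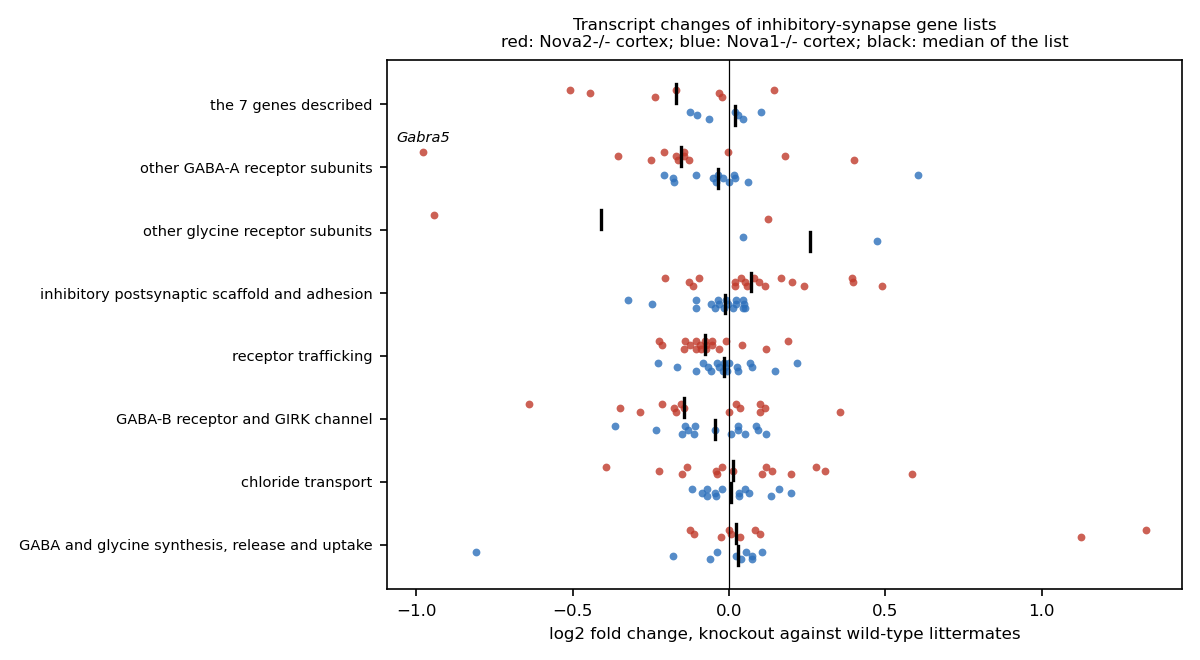
Log2 fold change (x axis) of each tested gene of the 7 genes described and the 7 pathway lists (rows) in *Nova2-/-* cortex (red) and *Nova1-/-* cortex (blue), with black marks at the medians and the name of the gene that passed the threshold. *Gabra5* stands alone at -0.98 among GABA-A receptor subunits, and *Slc6a13* and *Slc6a12* lie at 1.33 and 1.13.

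Some other pathway genes also have listed events. Those described are *Dmd*, *Nrxn3*, *Ptprd* and *Shisa7* among scaffold and adhesion genes, and *Wnk1*, *Wnk2* and *Wnk3*, kinases that control chloride transporters. No other subunit of a GABA-A or glycine receptor has a listed event, and neither has any gene of the GABA-B, trafficking or synthesis lists. The largest values in *Nova2-/-* cortex were those of *Ptprd*, which encodes a presynaptic adhesion receptor, from -0.448 to 0.432, and of *Wnk3*, at 0.427. Both lie below the -0.603 of *Gphn* and the -0.591 of *Glra2* in size. None of the events of these genes reached 0.1 in size with an FDR below 0.1 in either *Nova1-/-* comparison. Of all listed events, 0.907% did in cortex and 5.98% in midbrain and hindbrain. *Shisa7* stood at 0.212 in *Nova2-/-* cortex and at -0.160 in *Nova1-/-* cortex, the latter not passing at that FDR.

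Over the 12 cortices, the gene whose log2 CPM followed each of the 7 most closely was *Hddc3* for *Gabra2* (Pearson r = 0.979), *Gabbr1* for *Gabra3* (0.952), *Amz2* for *Glra2* (0.963), *Tmem30a* for *Glrb* (0.915), *Sirt6* for *Gphn* (0.922), *Mapk10* for *Kcnj6* (0.973) and *Pcdh19* for *Slc12a5* (0.959). *Gabbr1*, which encodes a GABA-B receptor subunit, had 449, 435 and 500 CPM in wild-type and 342, 356 and 382 CPM in *Nova2-/-* mice (log2 fold change -0.35, adjusted p = 0.0826 in edgeR's test). Among the 7 genes the closest pair was *Gabra3* and *Kcnj6* (r = 0.817), and the pair farthest apart was *Glra2* and *Slc12a5* (r = -0.330). These correlations describe 12 libraries in 4 groups that share processing, and each was the highest of many. The r for *Gabra2* leans heavily on wild-type replicate 3, where the gene stood at 33.1 CPM, against 82.0 to 110 CPM in all other mice. Which gene would follow *Gabra2* most closely with that library left out was not tested.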

How the data were processed

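The authors extracted total RNA with Trizol, depleted ribosomal RNA (Ribo-Zero), prepared TruSeq libraries and aligned paired-end reads to mm10 with OLego. The authors deposited expected counts per gene symbol, not normalized, for 12 cortices. The counting program and its annotation are not given in the sources used here. In a further deposited table, each splicing event has ΔI, a score from -1 to 1, and an FDR (an adjusted p-value) per comparison, at mm9 coordinates. The columns of the authors' own edgeR comparisons of abundance (log2 fold changes and FDR) were not used. ΔI and its FDR are the authors' values.

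Samples were grouped by the labelled genotype and replicate number, and wild-type mice were assigned to litters from labels and methods. The 7 genes and the lists were chosen with earlier results of these data known. The paper calls the replicates biological and the mice littermates, but which knockout shared a litter with which wild-type mouse is not given. The main test was unpaired, so p-values measure the spread between mice, with any difference between litters in it. Expected counts were rounded, scaled by TMM, filtered (filterByExpr) and tested with edgeR 4.0.16 (R 4.3.3), quasi-likelihood, Benjamini-Hochberg over all genes tested, at 0.05. The 6 mice of a comparison entered its fit, and all 12 the test of the difference. The test was checked on simulated counts. Levels per kilobase used merged exons of the mm9 annotation. Event starts, counted from 0 in the table, are printed counting from 1. Sequences are from the mm9 genome. Named pathway genes were those called and the 2 with the largest change per list and comparison, of which some are printed, and for likeness the 1 gene with the highest r. *Sst*, *Gabbr1*, *Dynll1* and the splicing genes that fall outside that rule were named after their values were seen. Alternatives tried were a minimum of 10 counts in each sample, no filter, scaling by upper quartile or RLE, DESeq2 1.42.0, a log2 fold change of at least 1, all 12 cortices in one fit, a replicate block, each mouse left out, plain CPM, longest transcripts, and other limits and counting units for events. The events of 1 pathway gene are not reported here. Gene counts of midbrain and hindbrain were not used here. Tables and figures were made with Python 3.11.15, pandas 2.3.3 and matplotlib 3.10.9.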

Additional observations from a re-analysis of the deposited data

Results flagged for a closer look

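The change of *Gabra3* differed between the knockouts, by -0.56 on the log2 scale (*Nova2-/-* minus *Nova1-/-*), in the test of the difference with all 12 cortices. By the same test, which passed for 1.83% of 16210 genes, 3 of the 92 tested genes of the pathway lists differed. *Gabra5* differed by -0.97 and *Kctd8* by -0.68, both lower in *Nova2-/-* mice than in all wild-type littermates. With 1 mouse left out, the difference passed in 3 of 12 fits each for *Gabra3* and *Gabra5* and in 1 of 12 for *Kctd8*. *Slc6a12* differed by 1.93, with higher values in *Nova2-/-* and lower ones in *Nova1-/-* mice than in their littermates. Its difference also passed in 3 of 12 such fits. With 3 mice per group, no mouse was tested for standing apart from its group.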

How the results depend on the processing

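In *Nova2-/-* cortex the count of all genes passing was 166, and it was 846 with DESeq2, 1334 with all 12 cortices in one fit, 41 at a log2 fold change of at least 1, and 7 to 1433 with 1 mouse left out. Of the 7 genes, 1 passed with DESeq2 and 1 with all 12 cortices, *Gabra3* each time (adjusted p = 0.000512 and 0.00774), and 0 to 3 with 1 mouse left out. Of the pathway genes, 9 passed with DESeq2, 13 with all 12 cortices, 2 with the replicate block, 0 at a log2 fold change of at least 1 and 0 to 14 with 1 mouse left out. In *Nova1-/-* cortex 2 genes passed, 34 with DESeq2, 1 with at least 10 counts in every sample and 1 to 10 with 1 mouse left out, and none of the 7 genes passed in any of these. For the difference between knockouts, 296 genes passed, 851 with DESeq2, 113 at a log2 fold change of at least 1 and 113 to 1005 with 1 mouse left out; of the 7 genes 0 at that fold change and 0 to 1 with 1 mouse left out; and of the pathway genes 10 with DESeq2, 1 at that fold change and 0 to 9 with 1 mouse left out. The cause of these shifts was not tested. With 1 mouse left out, uncalled log2 fold changes crossed 0 in *Nova2-/-* cortex for *Gabra2* (-0.23 to 0.43), *Gphn* (-0.061 to 0.055) and *Slc12a5* (-0.23 to 0.11), in *Nova1-/-* cortex for *Glra2* (-0.030 to 0.052), *Slc12a5* (-0.16 to 0.021), *Gabra5* (-0.14 to 0.092) and *Kctd8* (-0.024 to 0.096), and in the difference for *Gabra2* (-0.28 to 0.39), *Glrb* (-0.17 to 0.038), *Gphn* (-0.092 to 0.024) and *Slc12a5* (-0.16 to 0.17). The difference for *Gabra3* passed under all 5 other settings that did not raise the fold change (adjusted p 0.00204 to 0.0439). The 5 events of *Gphn* and *Glra2* come to 3 when each span is counted once and 2 when each gene is. Same-numbered mice of the *Nova2* litters had deviations that correlated at 0.124, 0.044 and 0.212 (replicates 1, 2 and 3). Differently numbered ones correlated at -0.221 to -0.059 where 1 of them was replicate 3. Between replicates 1 and 2 the values were 0.027 and 0.146. The numbers were not taken as pairs in the main test. With the replicate block 220 genes passed.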
